A study of Arabidopsis thaliana with 22 samples.

Results

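The passage of leaf 10 from rapid expansion to full size was followed in wild-type Arabidopsis thaliana (Col-0) grown at elevated CO2, 750 ppm. The comparison set 4 arrays of fully expanded (mature) leaves against 3 arrays of expanding leaves, and these 7 arrays were taken from the 22 arrays of the series by their labels of leaf stage and CO2 level. Every probe set other than the 59 control probe sets entered, which left 12511 of 12570. None of the groups carried a mutation, a transgene or an added agent, by their labels. Set beside this step are the same step at ambient CO2, 370 ppm, with 4 mature and 3 expanding arrays, and the step before it at elevated CO2, from 4 arrays of dissected primordia with 20 plants pooled in each, to the expanding leaves.

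The series title asks how the response of leaf dark respiration to growth CO2 depends on developmental stage. Plants began at 370 ppm, and after 7 days they were spread at random over 2 growth chambers, with 10 h of light at 300 µmol m-2 s-1 and 21 °C and 14 h of darkness at 18 °C. Each chamber had its own CO2 level, so CO2 level and chamber cannot be told apart, but mature and expanding leaves at elevated CO2 came from the same chamber. Expanding and mature leaves were harvested whole, and their ages, the time of day and the number of plants behind each array are not given in the labels.

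As a leaf matures, cells stop dividing and then stop enlarging, the walls are no longer loosened, and the machinery that builds chloroplasts gives way to the machinery that runs them. The leaf turns from importing sugar to exporting it, and mature blades of this species store glucosinolates, sulfur-containing defence compounds, and recycle cell parts through autophagy. Mitochondrial respiration supplies energy and carbon skeletons for growth in the young leaf, and energy for upkeep and sugar export in the mature one.

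The data collected are log2 expression levels from Affymetrix arrays, in which short oligonucleotide probes bind labelled RNA, and each array is centred on its own median. A level of 0 is therefore the median probe set of that array, a level of 1 lies 2-fold above it, and levels of different genes are not compared. A difference is mature minus expanding on the log2 scale, with its standard error (SE) from a limma fit, and calls were made where p, adjusted over all probe sets, was under 0.05. "Rose" and "fell" are used of called genes. Values of mature leaves are given in the order of replicates 1 to 4, and those of expanding leaves in the order of replicates 1 to 3.

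Arrays of the same group correlated with r of 0.969 to 0.987 in mature and 0.982 to 0.987 in expanding leaves over all probe sets, and arrays of different stages with r of 0.917 to 0.970. The first principal component of the 7 arrays held 66% of their variance, and mature replicates 3 and 4 lay farther from the expanding leaves on it, at 38.2 and 30.2, than mature replicates 1 and 2, at 14.5 and 7.6, while expanding arrays lay at -36.7, -28 and -25.8. The median SD of a probe set was 0.18 in mature and 0.15 in expanding leaves, and 0.12 to 0.15 in the other groups of the series, which share the fit. Results below are therefore also given without mature replicates 3 and 4 where that ends a call or moves a called difference by over 1.5 times. A measure of RNA quality moved with stage as well: for control transcripts, the signal near the 3-prime end minus the signal near the 5-prime end was 1.41 to 1.65 in mature and 1.71 to 1.98 in expanding leaves, without overlap, and 1.52 to 1.59 in mature against 1.61 to 1.83 in expanding leaves at ambient CO2 (exact permutation p = 0.0571 two-sided at each CO2 level, the smallest that 4 against 3 arrays can give). Its part in the results was not tested beyond a fit with that signal as a covariate. Since the signal did not overlap between the stages, that fit can separate signal from stage only by the spread within groups. A call lost in it is therefore not by itself a smaller difference.

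**Figure D1:**
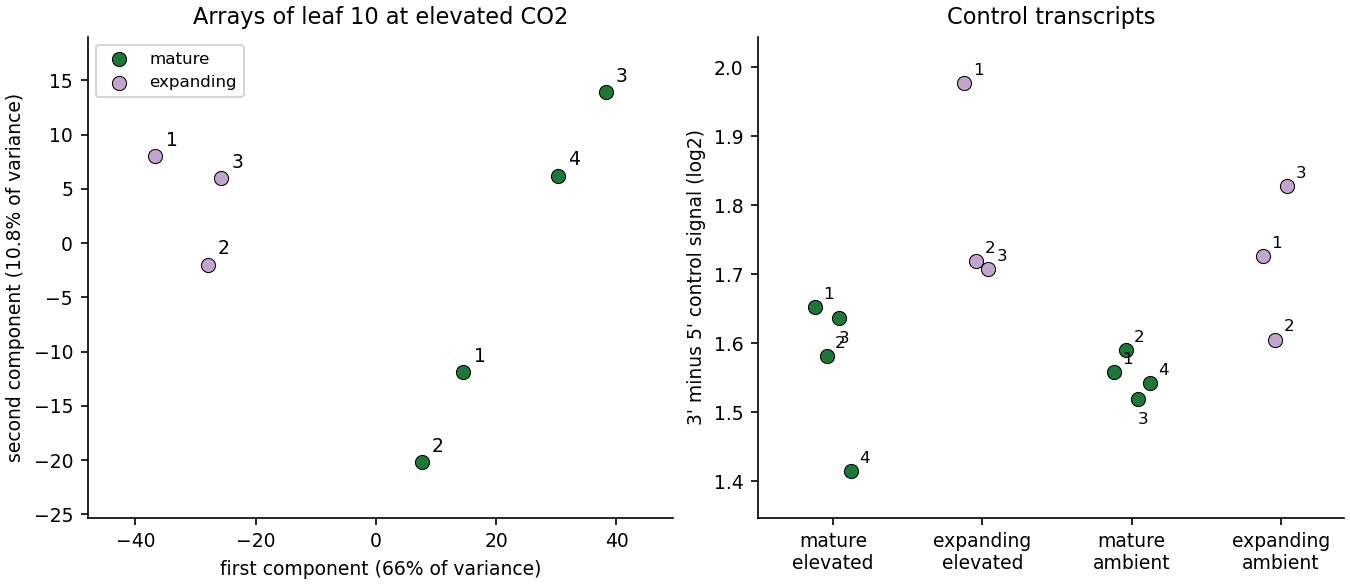
Left, the first principal component (x axis, 66% of variance) against the second (y axis, 10.8%) of the 7 arrays at elevated CO2, with replicate numbers beside the points. Right, the control signal near the 3-prime end minus that near the 5-prime end, on the log2 scale (y axis), for mature and expanding leaves at elevated and ambient CO2, 1 point per array. Mature replicates 3 and 4 lie at 38.2 and 30.2 on the first component, beyond replicates 1 and 2, and the control signal of mature leaves lies below that of expanding leaves at both CO2 levels.

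Maturation at elevated CO2 changed a large share of the transcripts measured. Of 12511 probe sets, 4729 were called (37.8%), 2110 of them higher (16.9%) and 2619 lower (20.9%) in mature leaves. Most changes were modest, with a median size of 0.54 among the called, and 583 probe sets (4.66%) were called with a difference of at least 2-fold, 210 higher (1.68%) and 373 lower (2.98%). The median difference over all probe sets was -0.03. For 4674 probe sets (37.4%) the 4 mature arrays all lay on 1 side of the 3 expanding arrays, above them for 2090 (16.7%) and below them for 2584 (20.7%). Without mature replicates 3 and 4 the fit called 2765 probe sets, 1175 higher and 1590 lower, of which 2587 were also called with all arrays, and 350 at 2-fold. With the 3-prime minus 5-prime signal as a covariate it called 2511, of which 2431 were also called without it. A named gene is one whose probe set carries exactly 1 gene in the platform annotation, which holds for 2505 of the 4729.

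The 12 largest falls of named genes included glycine-rich, protease, lipase and lipid transfer protein genes, and the largest was 22-fold. AT4G29020, a glycine-rich protein gene, had levels of -0.29, -0.75, -1.95 and -1.0 in mature leaves, against 3.71, 3.32 and 3.36 in expanding leaves. The 2 groups were far apart, and mature replicate 3 was the lowest of all. The difference was -4.46 ± 0.33 (SE, adjusted p 3.51e-08), 22-fold lower in mature leaves, the largest change of any named gene in either direction among those without overlap. AT1G31690, a copper amine oxidase gene, stood at -0.21, -0.79, -2.05 and -1.18 in mature leaves and at 2.56, 2.28 and 2.25 in expanding leaves. It fell 10.7-fold, by 3.42 ± 0.30 on the log2 scale (adjusted p 1.97e-07). AT1G11850 fell by 3.31 ± 0.27, with -1.13 to -2.78 in mature and 1.42 to 1.49 in expanding leaves.

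AT5G48490, related to the lipid transfer protein DIR1 of systemic defence, was at -2.01, -1.83, -2.47 and -3.10 in mature leaves, against 1.14, 0.43 and 0.65 in expanding leaves, a fall of 3.09 ± 0.28 (adjusted p 1.97e-07). Every mature array lay more than 2 log2 units below every expanding array. AT1G47400 encodes a small peptide of the IRON MAN family, which promotes iron uptake. Its levels were -1.90, -1.6, -0.62 and -1.64 in mature and 1.75, 0.48 and 1.49 in expanding leaves, a fall of 2.68 ± 0.31, and here mature replicate 3 was the highest of the mature arrays. SBT1.3, a subtilase (a secreted protease), was at -1.56, -1.94, -2.50 and -2.19 in mature leaves, against 0.80, 0.41 and 0.46 in expanding leaves, and fell by 2.61 ± 0.23 (adjusted p 1.97e-07). It is the gene of this set that had already fallen most on the way from primordia to expanding leaves, by 3.06.

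Proteases and lipases stood among the other large falls. The aspartyl protease gene AT5G07030 fell by 2.66 ± 0.29 and the Ole e 1-type extensin gene AT3G16670 by 2.65 ± 0.38. Among these 12 were 3 genes of GDSL lipases, enzymes that cleave esters, and their shared family was noticed after the values were seen. AT1G33811 was at -0.32, -0.26, -1.94 and -0.85 in mature and 1.66, 1.64 and 1.91 in expanding leaves, AT4G18970 at -0.96 to -2.55 and 0.87 to 0.99, and AT2G04570 at -1.79 to -2.75 and 0.20 to 0.25. None of the 3 overlapped between stages, since that was required of the 12, and the falls were 2.58 ± 0.32, 2.58 ± 0.26 and 2.46 ± 0.21. AT1G23205, a pectin methylesterase inhibitor-type gene, was at -0.75, -0.65, -2.64 and -2.41 in mature leaves, against 1.03, 0.75 and 0.56 in expanding leaves. Its 4 mature arrays split into replicates 1 and 2 above and 3 and 4 far below, and the fall of 2.39 ± 0.36 (adjusted p 4.15e-05) became a difference of -1.48 without replicates 3 and 4. In 10 of the 12 genes mature replicates 3 and 4 were both below replicates 1 and 2. Picking the largest falls from means that include these arrays favours that order, so it adds no support. Among the 12 largest rises, described next, both were above replicates 1 and 2 in 7. The 12 genes with the largest falls also fell at ambient CO2, by 1.87 (AT5G07030) to 4.26 (AT4G29020). There 24.6% of all probe sets were called lower, and 77.5% of those called at elevated CO2 were called as well.

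The 3 largest rises of named genes were in a defensin, a metallothionein and an enzyme of glucosinolate synthesis. PDF1.2, an antifungal defensin induced by jasmonate and ethylene, had levels of 2.64, 1.75, 3.26 and 1.89 in mature leaves, against 0.28, -0.35 and -0.70 in expanding leaves. All mature arrays were higher, although the 4 were widely spread. The rise was 2.64 ± 0.42 (adjusted p 7.13e-05), 6.23-fold. MT1C, a metallothionein that binds copper and zinc, was at 3.25, 3.49, 3.45 and 3.20 in mature and at 0.75, 1.25 and 0.81 in expanding leaves. Its mature arrays lay close together, and it rose 5.32-fold, by 2.41 ± 0.24 (adjusted p 4.81e-07). BCAT4, the aminotransferase that starts the lengthening of methionine for glucosinolates, was at 2.93, 2.51, 2.70 and 2.74 in mature leaves, against 0.30, 0.33 and 0.32 in expanding leaves. It rose by 2.40 ± 0.38 (adjusted p 6.39e-05), after a rise of 3.10 from primordia to expanding leaves.

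AT2G16660, a transporter-like gene of the major facilitator family, was at 3.34, 3.75, 3.87 and 3.38 in mature and 1.51, 1.87 and 1.19 in expanding leaves, a rise of 2.06 ± 0.18 (adjusted p 1.75e-07). It is 1 of the rises in which the preceding step ran the other way, with a fall of 0.65 from primordia to expanding leaves. AT3G16530, a legume-type lectin gene, averaged 4.08 ± 0.24 (SD, n = 4) in mature leaves and 2.2 ± 0.31 (SD, n = 3) in expanding leaves, and rose by 1.88 ± 0.28. The basic helix-loop-helix gene AT1G05710 was at -0.21, 0.02, 0.48 and 0.22 in mature leaves, against -2.29, -1.52 and -1.23 in expanding leaves. It rose by 1.81 ± 0.22, back to near its level of -0.12 in primordia, from which it had fallen by 1.56 in expanding leaves. The remaining 6 of the 12 were AT2G04795 (1.95 ± 0.20), AT1G30250 (1.76 ± 0.39), the hydroxyproline-rich glycoprotein gene AT5G65660 (1.7 ± 0.18), the pectate lyase gene AT3G27400 (1.7 ± 0.23), AT3G15780 (1.67 ± 0.12) and the C2-domain gene AT1G70810 (1.64 ± 0.23). Of the 12 rises, 11 were also called as rises at ambient CO2, against 19.7% of all probe sets, and AT3G27400 was not, at 0.23 ± 0.23. Of all probe sets called at elevated CO2, 77.5% were also called at ambient CO2. A probe set unnamed here had the largest rise of all, 3.04 ± 0.26.

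**Figure D2:**
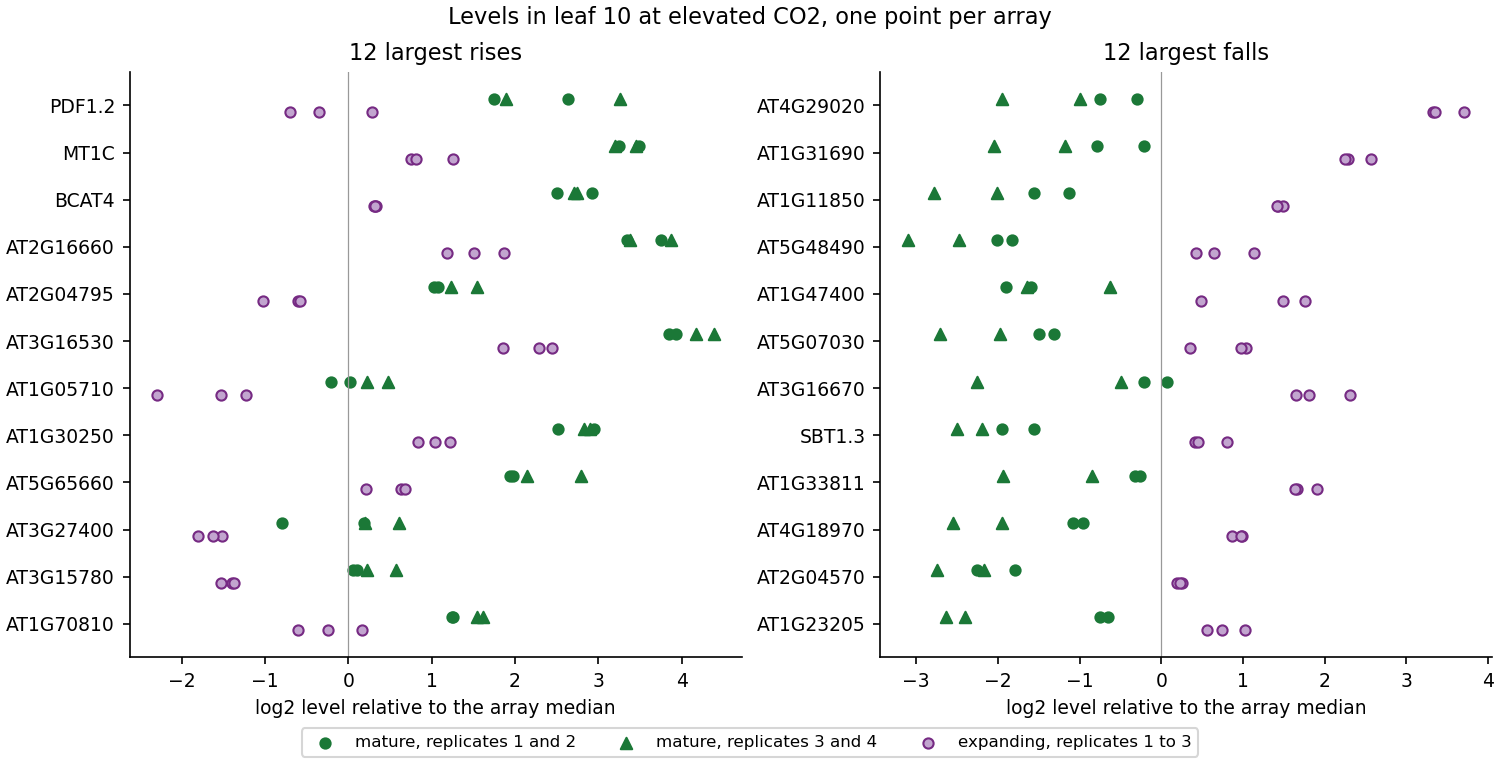
Log2 levels relative to the array median (x axis) in mature (above) and expanding leaves (below) at elevated CO2, 1 point per array, for the 12 named genes with the largest rises (left) and the largest falls (right), largest at the top. No gene overlaps between stages, since that was required. In 10 of the 12 falls mature replicates 3 and 4, drawn as triangles, lie below mature replicates 1 and 2, and in 7 of the 12 rises above them, an order that the ranking favours.

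Both genes of cell division that could be measured fell with maturation. In these whole-leaf samples, fewer cells of a type and less RNA per cell cannot be told apart. Of 45 listed genes of the cell cycle and DNA replication 2 had a named probe set, too few for a count to be read. AUR1, a mitotic kinase, was at -2.04, -2.06, -3.58 and -3.09 in mature leaves, against -1.48, -1.49 and -1.23 in expanding leaves. Mature replicates 3 and 4 were again the lowest, and the fall of 1.29 ± 0.25 (adjusted p 0.000495) was 0.65 without them. PRL, an MCM helicase subunit that opens DNA for replication, was at -0.80, -1.12, -1.27 and -1.15 in mature and -0.11, -0.56 and -0.59 in expanding leaves. It fell by 0.66 ± 0.14 (adjusted p 0.000917), after falling by 2.01 from primordia to expanding leaves, and with the control signal as a covariate its difference, then -0.45, was not called.

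Wall-loosening proteins, expansins that slide wall polymers apart and XTH enzymes that cut and rejoin xyloglucan, went in both directions. Of 37 listed genes 9 were measured, 2 higher and 5 lower (against 16.9% and 20.9% of all probe sets), with a median of -0.48 (all probe sets -0.03; the same genes at ambient CO2 0.08, with 2 higher and 3 lower). XTH16 was at -1.86, -1.59, -2.52 and -3.59 in mature leaves, against -0.01, -0.20 and -0.14 in expanding leaves, and EXPA15 at -2.25, -2.70, -2.97 and -2.27 against -0.37, -1.17 and -0.83. Neither overlapped, and they fell by 2.28 ± 0.30 (adjusted p 9.78e-06) and 1.76 ± 0.18 (adjusted p 1.12e-06). EXPB3, EXPA8 and EXPA9 fell by 1.09 ± 0.25, 0.89 ± 0.26 and 0.48 ± 0.18. EXPA4 and EXGT-A3, an XTH gene, rose, by 0.57 ± 0.10 and 0.68 ± 0.13. EXPA8 had risen by 3.57 from primordia to expanding leaves, and at ambient CO2 its maturation difference was 0.10 ± 0.26. The count of lower genes was 3 without expanding replicate 3 and 3 without mature replicates 3 and 4, where EXPA8 and EXPA9 were not called, at -0.73 and -0.59.

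Tubulins, the subunits of microtubules that guide cellulose deposition, had 5 of 7 measured genes lower and 1 higher, out of 15 listed, with a median of -0.45, against 20.9% of all probe sets lower and 16.9% higher. At ambient CO2 2 tubulins were lower and 1 higher, against 24.6% and 19.7% of all probe sets, with a median of -0.13. TUB7 was at 0.43, 0.62, -0.20 and -0.01 in mature leaves, against 1.03, 1.27 and 0.95 in expanding leaves, and fell by 0.88 ± 0.15 (adjusted p 0.000124), or by 0.56 without mature replicates 3 and 4. TUB1, TUB5, TUB6 and TUA6 fell by 0.73 ± 0.25, 0.45 ± 0.11, 0.45 ± 0.10 and 0.36 ± 0.09. TUA1 ran the other way, at 0.91, 0.86, 1.29 and 1.14 in mature leaves, against -0.27, 0.09 and 0.09 in expanding leaves, and rose by 1.08 ± 0.17 (adjusted p 8.19e-05). The count of lower tubulins was 3 without mature replicates 3 and 4, where TUB1 and TUB5 were not called, at -0.40 and -0.28, and 3 with the control signal as a covariate. COB, which orients cellulose fibrils, was the sole measured gene of 11 listed for cellulose synthesis, and its difference of 0.20 ± 0.09 was not called.

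Regulators of leaf form and of epidermal patterning were measured thinly. Of 36 listed regulators of growth and polarity 5 were measured and 2 were lower, none higher, against 20.9% and 16.9% of all probe sets. YAB3, a YABBY factor of the lower leaf side, was at -0.30, -0.25, -0.55 and -0.55 in mature and 0.36, 0.12 and 0.01 in expanding leaves, and fell by 0.58 ± 0.12. ARL, which promotes organ growth by cell enlargement, was at -1.94, -1.86, -1.53 and -1.64 in mature leaves, against -1.01, -1.37 and -0.28 in expanding leaves. Its fall of 0.86 ± 0.23 (adjusted p 0.00514) rested on expanding replicate 3, without which the difference was -0.56 and was not called. STOMAGEN, a mesophyll peptide that raises stomatal density, was at 0.99, 1.00, -1.31 and -0.16 in mature leaves, against 2.29, 2.13 and 1.82 in expanding leaves. It fell by 1.95 ± 0.36 (adjusted p 0.000301), with the 4 mature arrays split as in AT1G23205, and without mature replicates 3 and 4 the difference was -1.08. ARR15, a response regulator of cytokinin signalling, fell by 1.12 ± 0.23, or by 0.64 without those arrays.

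Of the marker lists for single cell types, guard cells had 1 of 7 and trichomes 1 of 5 markers measured, and those for xylem, phloem, shoot meristem and flower had none. FMA, the FAMA factor that completes guard cell formation, was at -1.82, -1.90, -1.91 and -1.33 in mature leaves, against -1.39, -1.01 and -0.88 in expanding leaves. The groups overlapped, because mature replicate 4 was above expanding replicate 1, and FMA fell by 0.64 ± 0.17 (adjusted p 0.00432). The trichome repressor TRY did not pass, at -0.15 ± 0.20.

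Every measured gene of chlorophyll synthesis fell. Tetrapyrrole synthesis, the pathway from glutamate to chlorophyll and heme, had 8 of 24 listed genes measured, and all 8 were lower without overlap, with a median of -0.65, against 20.9% of all probe sets called lower and 20.7% lower without overlap. In the order of the pathway, GSA1, which makes aminolevulinic acid, fell by 0.63 ± 0.12. HEMB1, which joins it into porphobilinogen, was at 2.67, 2.58, 2.35 and 2.36 in mature leaves, against 3.20, 3.17 and 3.05 in expanding leaves, a fall of 0.65 ± 0.10 (adjusted p 3.26e-05). HEME1, an uroporphyrinogen decarboxylase, was at 1.27, 1.27, 0.57 and 0.89 in mature and 2.40, 2.08 and 1.84 in expanding leaves and fell the most, by 1.11 ± 0.17 (adjusted p 6.88e-05). Its partner HEME2 fell by 0.73 ± 0.14.

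Past the branch to chlorophyll, CHLI2, a subunit of the magnesium chelatase, fell by 0.65 ± 0.15, and CHLM, the methyltransferase of the next step, by 0.36 ± 0.12. PORB, the light-dependent protochlorophyllide reductase, was at 3.11, 2.85, 2.56 and 2.94 in mature leaves, against 3.56, 3.81 and 3.64 in expanding leaves, a fall of 0.81 ± 0.12 (adjusted p 2.92e-05). AT1G74470, the geranylgeranyl reductase that supplies the phytol tail, fell by 0.46 ± 0.09. Without mature replicates 3 and 4 the count was 6 of 8, with CHLI2 and CHLM not called, at -0.38 and -0.22, and GSA1 stood at -0.42, and with the control signal as a covariate it was 7. CHLM was also not called with the 7 arrays alone. At ambient CO2 all 8 were called lower too, against 24.6% of all probe sets, with a median of -0.64. From primordia to expanding leaves at elevated CO2, 3 of the 8 had risen, against 36% of all probe sets.

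The plastid chaperone, import and division list had 3 of 4 measured genes lower and none higher, out of 27 listed, against 20.9% and 16.9% of all probe sets. Cpn60beta2, a subunit of the chaperonin that folds Rubisco and other plastid proteins, was at 0.90, 1.79, 0.19 and 0.27 in mature leaves, against 3.49, 3.34 and 2.54 in expanding leaves. It fell 5.04-fold, by 2.33 ± 0.31 (adjusted p 1.3e-05). FTSZ2-1, which forms the ring that divides chloroplasts, was at 1.53, 1.66, 1.4 and 1.66 in mature and 2.34, 2.02 and 2.06 in expanding leaves and fell by 0.58 ± 0.09. Cpn60beta4 fell by 0.51 ± 0.14, or, without mature replicates 3 and 4, stood at -0.33 and was not called.

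Few genes of photosynthesis itself were called. RCA, the Rubisco activase, was at 5.84, 5.90, 5.80 and 5.98 in mature and 6.15, 6.09 and 5.88 in expanding leaves, far above the array median at both stages, and was not called at -0.16 ± 0.09. Of 8 measured light-reaction genes, from 49 listed, 1 was lower and none higher, against 20.9% and 16.9% of all probe sets. It was PSBY, a small photosystem II protein, which fell by 0.39 ± 0.12 (adjusted p 0.0117) and was not called without mature replicates 3 and 4, at -0.25. The median was -0.09, and all 8 differences were negative, but 2 of 8 were negative after quantile normalization of the arrays and 4 of 8 without mature replicates 3 and 4, so no direction is given for the list. From primordia to expanding leaves all 8 had risen, against 36% of all probe sets called higher in that step, which shares the expanding arrays.

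In the Calvin cycle, 1 of 5 measured genes of 23 listed was lower, against 20.9% of all probe sets, the phosphoglycerate kinase gene AT1G56190 (-0.35 ± 0.12, adjusted p 0.0220). This call was lost without expanding replicate 1 and without mature replicate 3, at -0.29 in each case, without mature replicates 3 and 4, at -0.26, after quantile normalization, at -0.20, with the covariate and with the 7 arrays alone. SBPASE, a phosphatase that regenerates the CO2 acceptor, was at 5.13, 5.17, 4.56 and 4.70 in mature leaves, against 5.24, 5.33 and 5.26 in expanding leaves, without overlap, and was not called at -0.38 ± 0.15 (adjusted p 0.0501). It stood at -0.12, not called, without mature replicates 3 and 4, and was called without mature replicate 1, at -0.47, and without mature replicate 2, at -0.48.

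Photorespiration, which salvages the product of oxygen fixation by Rubisco, had 4 of 6 measured genes lower and none higher, out of 22 listed, with a median of -0.36, against 20.9% of all probe sets lower and 16.9% higher. AT2G35120, an H protein of the glycine decarboxylase complex in mitochondria, was at -0.18, 0.12, -0.41 and -0.16 in mature leaves, against 0.43, 0.61 and 0.46 in expanding leaves, and fell by 0.66 ± 0.14 (adjusted p 0.000847). The T protein gene AT1G11860 fell by 0.42 ± 0.13, the plastid glycolate and glycerate transporter LrgB by 0.41 ± 0.16 and a further H protein gene, AT1G32470, by 0.28 ± 0.10. The count of 4 was 1 without mature replicate 3, 2 without mature replicate 4, expanding replicate 1 or expanding replicate 2, 1 without mature replicates 3 and 4 together, 1 with the covariate and 1 after quantile normalization. The median with the covariate was -0.36. AT1G11860, LrgB and AT1G32470 stood at -0.26, -0.18 and -0.10, not called, without mature replicates 3 and 4. All 6 differences were negative without mature replicates 3 and 4 and after quantile normalization as well.

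**Figure D3:**
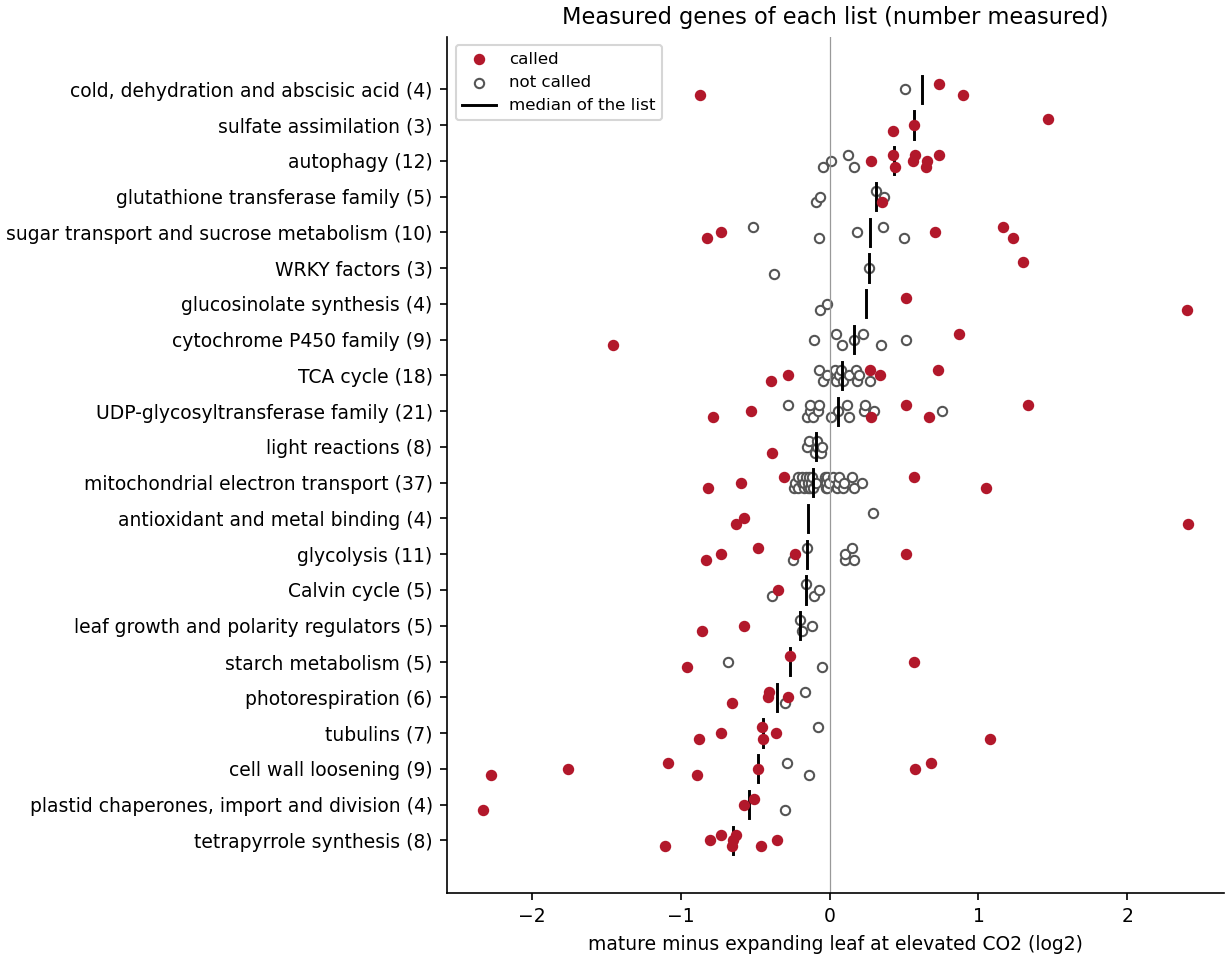
Difference between mature and expanding leaves at elevated CO2 on the log2 scale (x axis) for each measured gene of the lists with at least 3 measured genes (rows, with the number measured), filled where called; the black bar is the median of the list. All 8 tetrapyrrole genes lie below 0 and are called, the light-reaction genes lie close to 0, and 8 of 12 autophagy genes are called above 0.

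Few respiration genes were called, and in both directions. Over glycolysis, the tricarboxylic acid (TCA) cycle and mitochondrial electron transport, 66 of 154 listed genes were measured, 6 were higher and 9 lower at elevated CO2 (16.9% and 20.9% of all probe sets), and the median was -0.02. At ambient CO2 the same 66 genes had 3 higher and 24 lower, against 19.7% and 24.6% of all probe sets, with a median of -0.15. No difference between the CO2 levels was called for any of them, so the counts are given side by side only.

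In glycolysis, 1 of 11 measured genes was higher and 4 were lower, of 42 listed, against 16.9% and 20.9% of all probe sets. Without mature replicates 3 and 4 none was higher and 3 were lower. The pyrophosphate-dependent phosphofructokinase, an enzyme of the cytosol that works in both directions between fructose 6-phosphate and fructose 1,6-bisphosphate, had all 3 measured subunit genes lower. AT1G76550, an alpha subunit, was at -0.40, -0.68, -0.68 and -0.73 in mature leaves, against 0.38, 0.12 and 0.13 in expanding leaves, and fell by 0.83 ± 0.10 (adjusted p 4.47e-06). AT1G12000, a beta subunit, was at -0.17, 0.16, 0.33 and 0.01 in mature and 0.96, 0.77 and 0.73 in expanding leaves and fell by 0.73 ± 0.12 (adjusted p 7.64e-05). The other alpha subunit gene, AT1G20950, fell by 0.23 ± 0.09, a call lost without mature replicates 3 and 4, at -0.28, with the covariate, at -0.20, and with the 7 arrays alone, and all 3 had fallen by 1.2 to 1.32 from primordia to expanding leaves.

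ALDH11A3, a glyceraldehyde 3-phosphate dehydrogenase that makes NADPH, averaged 2.56 ± 0.13 (SD, n = 4) in mature leaves and 3.04 ± 0.10 (SD, n = 3) in expanding leaves, and fell by 0.48 ± 0.11. AT5G63680, a pyruvate kinase, was at 0.70, 0.31, 0.98 and 0.90 in mature leaves, against 0.08, 0.12 and 0.43 in expanding leaves. The stages overlapped, and the rise of 0.51 ± 0.17 (adjusted p 0.0190) was not called without mature replicate 3 or 4 or expanding replicate 1 or 2, with 0.43 to 0.47, and stood at 0.30 without mature replicates 3 and 4 together. The cytosolic enzymes TPI and GAPC2, of the steps between, did not pass, at 0.10 ± 0.07 and 0.10 ± 0.08.

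In the TCA cycle, 3 of 18 measured genes were higher and 2 lower, of 41 listed, against 16.9% and 20.9% of all probe sets, with a median of 0.08. The genes that passed, grouped here after their calls were known, belong to the span from 2-oxoglutarate to fumarate and to the entry of pyruvate. AT5G65750, an E1 subunit of 2-oxoglutarate dehydrogenase, was at -0.19, -0.13, 0.62 and 0.36 in mature leaves, against -0.76, -0.44 and -0.48 in expanding leaves, and rose by 0.73 ± 0.19 (adjusted p 0.00420), or stood at 0.40, not called, without mature replicates 3 and 4. The succinyl-CoA ligase alpha subunits moved apart: AT5G08300 was at 3.21, 3.20, 3.15 and 3.17 in mature and 2.80, 3.01 and 2.93 in expanding leaves and rose by 0.27 ± 0.08, and AT5G23250 was at 0.67, 0.77, 0.44 and 0.61 against 1.08, 0.95 and 1.03 and fell by 0.40 ± 0.11. AT5G23250 stood at -0.30 and was not called without mature replicates 3 and 4. AT5G08300 was not called without expanding replicate 1, at 0.22.

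SDH2-2, the iron-sulfur subunit of succinate dehydrogenase, rose by 0.34 ± 0.12 (adjusted p 0.0308), with overlapping arrays, and was not called when mature replicate 1 or 3 or expanding replicate 1 or 3 was left out, at 0.25 to 0.31. AT3G13930, an E2 subunit of pyruvate dehydrogenase, fell by 0.28 ± 0.10, or stood at -0.18, not called, without mature replicates 3 and 4. The count of 3 higher was 1 without expanding replicate 1 and 5 without mature replicate 2, and the count of 2 lower was 1 without expanding replicate 1 or 2 or mature replicate 3 or 4 and 0 without both of these mature arrays. With the control signal as a covariate no TCA gene was called, at a median of 0.09.

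Electron transport had 2 of 37 measured genes higher and 3 lower, of 71 listed, with a median of -0.11. Both counts of calls were below the shares of all probe sets, 16.9% higher and 20.9% lower. The differences of 26 genes were negative, and those of 22 after quantile normalization and without mature replicates 3 and 4. The mature arrays of 11 genes lay below the expanding arrays without overlap and those of 2 above, against 20.7% and 16.7% of all probe sets. At ambient CO2 30 differences were negative. The genes at the ends of the range of differences are alternative NAD(P)H dehydrogenases, which pass electrons to ubiquinone without pumping protons. NDB1, an external NADPH dehydrogenase, was at -0.08, -0.04, -0.06 and -0.05 in mature leaves, against 0.99, 0.63 and 0.67 in expanding leaves, and fell by 0.82 ± 0.10 (adjusted p 3.95e-06). Its 4 mature arrays were almost level. NDB2, an external NADH dehydrogenase, ran the other way, at 0.25, -0.18, 0.92 and 0.71 in mature and -0.84, -0.64 and -0.40 in expanding leaves, a rise of 1.05 ± 0.32 (adjusted p 0.0143). Without mature replicates 3 and 4 it stood at 0.66 and was not called.

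CYTC-2, a cytochrome c gene, rose by 0.56 ± 0.12, at 1.1 to 1.58 in mature and 0.46 to 0.83 in expanding leaves, while its partner CYTC-1, at 3.78 to 3.84 and 3.93 to 3.94, did not pass at -0.13 ± 0.06. AT3G15640, the cytochrome oxidase subunit 5b, was at 1.66, 1.53, 1.29 and 1.37 in mature and 2.02, 2.04 and 2.11 in expanding leaves and fell by 0.60 ± 0.09 (adjusted p 4.61e-05). The complex I subunit gene AT4G16450 fell by 0.31 ± 0.08, a call lost without mature replicates 3 and 4, at -0.27, with the covariate, at -0.26, and with the 7 arrays alone. At ambient CO2, 14 electron transport genes were called lower and 2 higher, against 24.6% and 19.7% of all probe sets, again without a called difference between the CO2 levels. With the covariate CYTC-2 stood at 0.39 and was not called.

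Sugar transporters and an invertase changed in both directions. Of 42 listed genes of sugar transport and sucrose metabolism 10 were measured, 3 higher and 2 lower, against 16.9% and 20.9% of all probe sets, with a median of 0.27. SWEET17, a fructose carrier of the vacuole membrane, was at 1.33, 1.4, 1.2 and 1.21 in mature leaves, against -0.03, 0.47 and -0.28 in expanding leaves, and rose 2.35-fold, by 1.23 ± 0.16 (adjusted p 7.77e-06). AT1G62660, a vacuolar invertase, which splits sucrose, was at 1.02, 0.86, 1.07 and 1.03 in mature and -0.38, 0.16 and -0.29 in expanding leaves and rose by 1.16 ± 0.13 (adjusted p 2.22e-06). Both had mature arrays close together and expanding arrays spread out. SWEET2, also a vacuolar sugar carrier, rose by 0.71 ± 0.16.

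SWEET1, a glucose carrier, was at 0.13, 0.03, -0.05 and -0.08 in mature leaves, against 0.72, 0.86 and 0.92 in expanding leaves, and fell by 0.82 ± 0.12 (adjusted p 2.51e-05). TMT2, a sugar importer of the vacuole, fell by 0.73 ± 0.13. SWEET11, which exports sucrose toward the phloem, and ATSPS4F, a sucrose-phosphate synthase, did not pass, at 0.36 ± 0.18 and 0.50 ± 0.30, after differences of 5.86 and 4.94 between primordia and expanding leaves. TMT1, a vacuolar importer as well, was at -0.07 ± 0.09 at elevated CO2 and rose by 0.53 ± 0.09 at ambient CO2, a difference between CO2 levels that was not called.

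Of 5 measured starch genes, from 35 listed, DPE1, which recycles maltotriose when starch is broken down, was at 0.68, 0.43, 0.32 and 0.48 in mature leaves, against 1.51, 1.54 and 1.25 in expanding leaves, and fell by 0.96 ± 0.10 (adjusted p 1.37e-06). The branching enzyme gene SBE2.2 fell by 0.27 ± 0.10, and APL3, a large subunit of ADP-glucose pyrophosphorylase, which commits carbon to starch, rose by 0.56 ± 0.21 with overlapping arrays. Both calls were fragile. Leaving out expanding replicate 1, mature replicate 3 or mature replicate 4 ended each, with SBE2.2 at -0.24 to -0.25 and APL3 at 0.27 to 0.55, and SBE2.2 was also not called without expanding replicate 2 or mature replicate 1. Neither was called without mature replicates 3 and 4 together, with APL3 at 0.24 and SBE2.2 at -0.20.

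Sulfate assimilation and glucosinolate synthesis held rises and no falls. All 3 measured genes of 25 listed for sulfate assimilation were higher, against 16.9% of all probe sets. APS4, an ATP sulfurylase, which activates sulfate, was at 1.76, 1.60, 1.85 and 1.72 in mature leaves, against -0.22, 0.60 and 0.43 in expanding leaves, and rose 2.76-fold, by 1.47 ± 0.17 (adjusted p 2.45e-06). SIR, the sulfite reductase, was at 3.10, 3.15, 3.00 and 3.11 in mature and 2.59, 2.63 and 2.34 in expanding leaves and rose by 0.57 ± 0.09 (adjusted p 7.7e-05). A further ATP sulfurylase gene, APS3, rose by 0.42 ± 0.15 (adjusted p 0.0313) with overlapping arrays, and this call was lost without mature replicate 1 or 2 or expanding replicate 2 or 3, at 0.35 to 0.42. Glucosinolate synthesis had 2 of 4 measured genes higher, of 30 listed, against 16.9% of all probe sets: BCAT4, described above, and UGT74B1, which adds the glucose of the core structure and rose by 0.51 ± 0.12, or stood at 0.46, not called, with the covariate. GSTU20 and the glucosyltransferase gene AT2G31790 did not pass, at -0.06 ± 0.14 and -0.02 ± 0.17.

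Autophagy genes were the list with the most rises. Of 12 measured genes, from 24 listed, 8 were higher and none lower, against 16.9% and 20.9% of all probe sets, and the median was 0.43. Most encode ATG8, the small protein that is attached to the membrane of the forming autophagosome. ATG8F was at 3.37, 3.22, 3.61 and 3.6 in mature leaves, against 2.82, 2.73 and 2.86 in expanding leaves, and rose by 0.65 ± 0.11 (adjusted p 0.000129). The gene named APG8H in the annotation was at 3.23, 2.90, 3.30 and 3.38 in mature and 2.19, 2.46 and 2.76 in expanding leaves and rose by 0.74 ± 0.13 (adjusted p 0.000149). In both genes mature replicate 2 was the lowest of the mature arrays and still above every expanding array.

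ATG8B, ATG8G, ATG8D, APG8A and ATG8C rose by 0.65 ± 0.20, 0.58 ± 0.18, 0.56 ± 0.14, 0.42 ± 0.17 and 0.28 ± 0.09. AT3G59950, an ATG4 protease that trims ATG8, rose by 0.44 ± 0.12. ATG8E, ATG8H, the kinase gene AT3G61960 (ATG1A) and ATG3, which attaches the lipid, did not pass, at -0.05 to 0.16. Without mature replicates 3 and 4 the median was 0.32 and 2 genes were called higher, ATG8F and APG8H, and the count was 4 with the covariate and 5 without expanding replicate 1. At ambient CO2 9 of the 12 were higher and none lower, against 19.7% and 24.6% of all probe sets, with a median of 0.61, and 10 had been higher in expanding leaves than in primordia, against 36% of all probe sets.

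Of 20 listed genes of senescence and chlorophyll breakdown 2 were measured. NOL, a chlorophyll b reductase, was at 0.82, 0.80, 0.14 and 0.22 in mature and 1.05, 1.03 and 1.23 in expanding leaves and fell by 0.61 ± 0.15, or stood at -0.29, not called, without mature replicates 3 and 4. SAG101, a gene named for senescence with a role in defence signalling, did not pass, at 0.36 ± 0.27 with overlapping arrays.

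**Figure D4:**
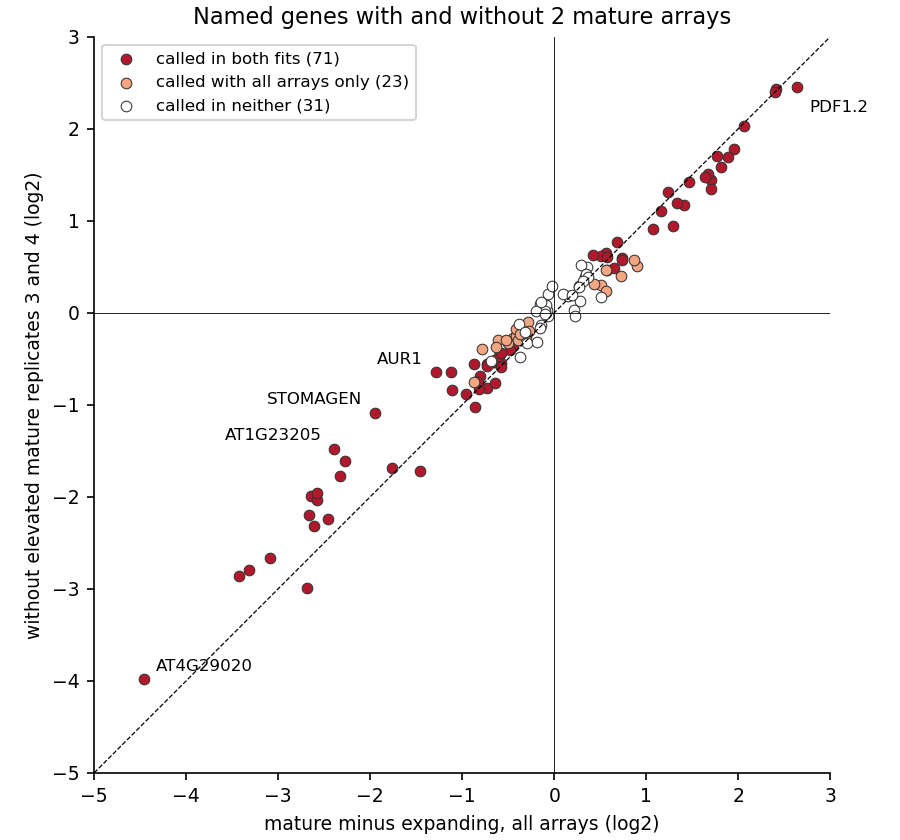
Difference between mature and expanding leaves at elevated CO2 on the log2 scale for the 125 named genes, with all arrays (x axis) and without mature replicates 3 and 4 (y axis), with the line of equal values. Of the 94 genes called with all arrays 71 were called in both fits and 23 with all arrays only; STOMAGEN, AT1G23205 and AUR1 lie well above the line.

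The step was next compared with the same step at ambient CO2, which uses none of the same arrays. At ambient CO2, 5541 probe sets were called (44.3%), 2464 higher (19.7%) and 3077 lower (24.6%), and 704 at 2-fold (5.63%), 279 higher (2.23%) and 425 lower (3.4%). Both lists shared 3666 probe sets, 77.5% of those called at elevated and 66.2% of those called at ambient CO2, and 9 of the shared ones had opposite signs. Of the 4729 called at elevated CO2, 97.5% had the same sign at ambient CO2, against 81.8% of all probe sets, and over the probe sets, which are not independent, the differences correlated with r = 0.862. A further 1063 probe sets were called at elevated and not at ambient CO2, and for none of them was the difference between CO2 levels called.

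The test of that difference called 4 of 12511 probe sets (0.032%), with 1275 at an unadjusted p under 0.05, and in all 4 the change was more positive at elevated CO2. AT1G77550, of the tubulin-tyrosine ligase family, was at -1.47, -1.32, -1.39 and -1.49 in mature and -1.55, -1.63 and -1.55 in expanding leaves at elevated CO2. At ambient CO2 it was at -1.84, -1.73, -1.73 and -1.76 in mature and -0.99, -0.83 and -1.06 in expanding leaves. It thus fell with maturation at ambient CO2, by 0.81 ± 0.10, and did not pass at elevated CO2, at 0.15 ± 0.10, and the difference of the steps was 0.96 ± 0.14 (adjusted p 0.00389). It was called in each of the 22 alternative fits, with an adjusted p of 0.00161 to 0.0289.

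AT4G36640, a Sec14-like lipid transfer gene, was at -0.82, -1.15, -0.80 and -0.57 in mature and -1.32, -0.94 and -1.07 in expanding leaves at elevated CO2. The ambient values were -1.7, -1.74, -1.33 and -1.48 in mature and -0.76, -0.53 and -0.79 in expanding leaves. The stages overlapped at elevated CO2 and were apart at ambient CO2, with differences of 0.28 ± 0.14 and -0.87 ± 0.14, and the difference of the steps was 1.15 ± 0.19 (adjusted p 0.0270, and 0.00847 to 0.193 over the alternatives, called in 16 of 22). ChiC, a class V chitinase that degrades chitin of fungal walls, was at -2.35, -2.27, -1.63 and -2.25 in mature and -2.36, -2.48 and -2.17 in expanding leaves at elevated CO2. At ambient CO2 it was at -2.82, -3.05, -2.63 and -2.44 in mature and -1.64, -1.34 and -1.67 in expanding leaves. Here too expanding leaves at elevated CO2 lay below those at ambient CO2 and mature ones above, a pattern that picking genes by this test favours. The difference of the steps was 1.4 ± 0.25 (adjusted p 0.0433, and 0.0213 to 0.196 over the alternatives, called in 9 of 21). The filter on dim probe sets removed ChiC, so it has 21 alternatives and not 22.

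The fourth probe set is unnamed here and was at -0.24 ± 0.12 at elevated and -1.42 ± 0.12 at ambient CO2 (difference 1.18 ± 0.17, adjusted p 0.00389). Next in order of p was AT2G38870, a protease inhibitor gene of a family linked to defence, which rose by 1.41 ± 0.22 at elevated CO2 and was at -0.18 ± 0.22 at ambient CO2. Its difference of 1.59 ± 0.31 did not pass (adjusted p 0.0830), nor did those of the kinase gene AT2G31010 and AT1G52930, a Brix-domain gene of ribosome building, whose steps were -0.07 ± 0.12 and 0.09 ± 0.13 at elevated and -0.94 ± 0.12 and -0.79 ± 0.13 at ambient CO2. The number of such probe sets, 4, became 2 without expanding ambient replicate 2 or mature ambient replicate 1 or 2, 7 without expanding elevated replicate 3, 10 without mature elevated replicate 1, 13 without mature ambient replicate 4, and 23 without mature elevated replicates 3 and 4 together.

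**Figure D5:**
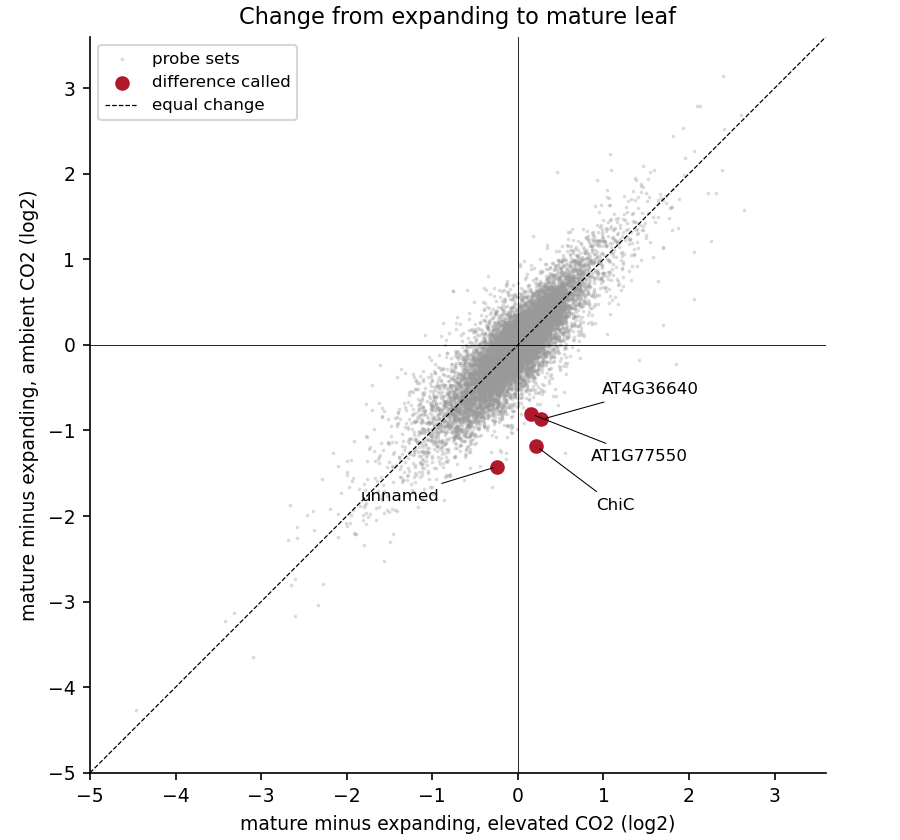
Difference between mature and expanding leaves on the log2 scale at elevated CO2 (x axis) and at ambient CO2 (y axis), 1 point per probe set, with the line of equal change. The 4 probe sets whose difference between CO2 levels was called are marked; AT1G77550 lies at 0.15 and -0.81 and ChiC at 0.21 and -1.18, away from the cloud along the line.

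The step before it shares the expanding arrays, so the values are given side by side only. From primordia to expanding leaves at elevated CO2, 8746 probe sets were called (69.9%), 4508 higher (36%) and 4238 lower (33.9%). Some genes moved in 1 direction over both steps: BCAT4 averaged -2.78 in primordia, 0.32 in leaves in expansion and 2.72 in mature ones, AUR1 at 0.98, -1.4 and -2.69, and SBT1.3 at 3.62, 0.56 and -2.05. Others turned: AT1G47400 averaged -0.96 in primordia, 1.24 in leaves in expansion and -1.44 in mature ones, DPE1 at 0.96, 1.44 and 0.48, and SWEET17 at 0.88, 0.05 and 1.28.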

How the data were processed

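Per the file headers, the labels and the values, the authors deposited log2 expression values of 22 arrays, each centred on its median; the log base was inferred from the range of -6.80 to 6.54, and background correction and summarisation are not stated in the labels or headers used here. Biotin-labelled RNA came from a 3-prime amplification kit, per the labels' protocols. Arrays give no read depth, so their number limits the precision. Of 12511 probe sets tested, 6782 had 1 gene in the platform annotation, 262 several and 5467 none; names were updated through the TAIR10.1 gene table, and 16 kept an older name. No coordinates or sequences are printed.

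All 22 arrays entered 1 model with a mean per group for the 6 groups (lmFit and eBayes of limma 3.58.1, run under R 4.3.3, with 16 residual degrees of freedom); tests were two-sided, with Benjamini-Hochberg adjustment over all probe sets. The labels call the arrays replicates but do not say that expanding or mature leaves came from separate cultures, so p-values measure the spread between these arrays. The script was tested on simulated arrays. Gene lists were written by locus, 30 of them with 6 marker lists, and 10 families by symbol; 5 and 4 of these lists and markers had no measured gene, and the probe set with the highest mean stood for a gene. A list was read by its counts where 3 or more genes were measured. Named were the 12 largest rises and falls called without overlap, up to 4 genes of each list with the smallest p, the 6 smallest p of the difference between CO2 levels, and other list genes beside their list's count. These members, lists and rules were chosen with earlier results of these data known. Alternatives were the compared arrays alone, quantile normalization, a filter on dim probe sets, the dimmest probe set of a gene in the lists, array weights, a trended robust prior, a replicate block, the 3-prime minus 5-prime control signal as a covariate, each array left out, and mature elevated replicates 3 and 4 left out together. Figures were drawn with matplotlib from the tables.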

Additional observations from a re-analysis of the deposited data

Results flagged for a closer look

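In 4 of 125 named genes 1 mature array at elevated CO2 stood far from the other 3 by Dixon's test, which reads the gap to the nearest array as a share of the group's range. Chance gives about 1 in 20 groups, a rate that 4 of 125 does not exceed. ChiC was highest in replicate 3 (gap 0.855 of the range, -1.63 against -2.35 to -2.25), and AT1G76550 (0.840, -0.40 against -0.73 to -0.68) and the cold-regulated gene COR15B (0.874, 1.23 against 0.80 to 0.85) were highest in replicate 1. FMA was highest in replicate 4 (0.847, -1.33 against -1.91 to -1.82), above 1 of the expanding arrays.

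The maturation step differed between elevated and ambient CO2 by limma's test of the difference in AT1G77550 (0.96), AT4G36640 (1.15), ChiC (1.4) and a probe set unnamed here (1.18), all on the log2 scale. In each of the 3 named genes the expanding leaves at elevated CO2 lay below all expanding leaves at ambient CO2, and the mature leaves at elevated CO2 above all mature leaves at ambient CO2. The genes were picked by that test on the same arrays, which favours such a pattern, so it adds no support.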

How the results depend on the processing

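The count of 4729 probe sets was 2511 with the 3-prime minus 5-prime signal as a covariate and 2765 without mature elevated replicates 3 and 4. The second fit also has fewer arrays, and no cause was tested in either case. Leaving out 1 array at a time gave 3551 to 5141. The 2-fold count of 583 was 350 without replicates 3 and 4 and 471 to 738 over single arrays. At ambient CO2 single arrays gave 4641 to 5686. The 4 differences between CO2 levels were 8 with array weights, 7 with quantile normalization, 1 with only the compared arrays, 23 without replicates 3 and 4, and 2 to 13 over single arrays. Replicate numbers did not pair expanding with mature arrays (r of their deviations -0.02, 0.03 and 0.18 at elevated, -0.24, 0.01 and -0.10 at ambient CO2); the replicate block gave 4589, 545, 5443 and 2 calls for the 4 counts. Of 2732 refits of named genes, 2557 kept direction and side of the threshold, 119 lost a call, 29 gained one and 27 changed sign, all in genes not called. The sign changes of log2 differences were as follows. After quantile normalization AT2G31010 was at 0.11, PSAN at 0.014, PSBW at 0.075 and PRK at 0.03. With array weights AT2G31010 was at 0.007. With the covariate AT2G31790 was at 0.031 and SAG101 at -0.201, and with the replicate block AT2G31790 was at 0.017. Without mature elevated replicates 3 and 4, values were 0.03 for LYC, 0.092 for PSAN, 0.085 for PSBW, 0.016 for PRK, 0.203 for GSTU20, 0.29 for AT2G31790, 0.02 for YAB5, 0.122 for TRY and -0.03 for CYP71B6. Leaving out single arrays gave -0.19 to 0.002 for AT2G31010, -0.141 to 0.014 for LYC, -0.172 to 0.025 for GSTU20, -0.127 to 0.096 for AT2G31790, -0.031 to 0.657 for SAG101 and -0.254 to 0.015 for TRY. The causes were not tested.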

Other observations

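Cold and dehydration genes, 4 measured of 26 listed, moved apart, with 2 higher and 1 lower, against 16.9% and 20.9% of all probe sets. Without mature replicates 3 and 4 the list had 1 higher and 0 lower. COR47, a dehydrin, was at 1.52, 2.1, 2.3 and 1.99 in mature leaves, against 1.15, 1.37 and 1.21 in expanding leaves, and rose by 0.74 ± 0.15. COR15A, which protects chloroplast membranes in the cold, was at 2.2, 2.1, 3.02 and 2.83 in mature and 1.84, 2.09 and 0.99 in expanding leaves. Its rise of 0.90 ± 0.27 was not called without expanding replicate 3, at 0.57, or without mature replicates 3 and 4, at 0.51. Its neighbour in name COR15B ran the other way, at 1.23, 0.85, 0.80 and 0.80 in mature and 1.51, 2.21 and 1.66 in expanding leaves, a fall of 0.87 ± 0.22, and was not called without mature replicates 3 and 4, at -0.75. These 2 genes are closely related, and cross-hybridisation between their probes was not tested.

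Of 4 measured antioxidant and metal-binding genes, from 24 listed, 1 was higher and 2 lower, against 16.9% and 20.9% of all probe sets. The rise was that of MT1C, described above, and SAPX did not pass, at 0.29 ± 0.20. TAPX, the ascorbate peroxidase of the thylakoid, was at 2.1, 2.07, 1.6 and 1.53 in mature leaves, against 2.40, 2.62 and 2.34 in expanding leaves, and fell by 0.63 ± 0.14, or stood at -0.37, not called, without mature replicates 3 and 4. CCS, which loads copper onto superoxide dismutase, fell by 0.58 ± 0.16, a call lost without expanding replicate 2. At ambient CO2 neither TAPX nor CCS was called, at -0.30 ± 0.14 and 0.08 ± 0.17, and no difference between CO2 levels was called for them. Of 21 UDP-glycosyltransferases, which attach sugars to small molecules, 4 were higher and 2 lower, against 16.9% and 20.9% of all probe sets. UGT84A3 was at -1.41, -1.6, -0.97 and -1.49 in mature and -2.89, -2.23 and -2.99 in expanding leaves and rose by 1.33 ± 0.29, while UGT73B1 fell by 0.79 ± 0.23, or stood at -0.40, not called, without mature replicates 3 and 4. The count of higher genes was 2 without mature replicate 4, and that of lower genes was 1 without expanding replicate 2. Without mature replicates 3 and 4 there were 2 higher and 0 lower, and with the covariate 1 higher and 0 lower. Of 3 measured WRKY transcription factor genes 1 was higher and 0 lower, against 16.9% and 20.9% of all probe sets. It was WRKY47, at -0.72, -1.07, -0.28 and -0.12 in mature leaves, against -1.79, -1.66 and -2.07 in expanding leaves, which rose by 1.3 ± 0.23 (adjusted p 0.000176). WRKY20 and WRKY22 did not pass, at 0.26 ± 0.11 and -0.37 ± 0.23.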
